A study of Mus musculus with 16 samples.

Results

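The genes described are 9 vessel genes, chosen by name for the type of vessel they mark, of 54752 gene IDs counted in iWAT, the inguinal white fat that lies under the skin of the groin. Of these, 4 mark high endothelial venules (Glycam1, Madcam1, Chst4 and Fut7) and 5 mark lymphatic vessels (Prox1, Flt4, Pdpn, Mmrn1 and Reln). The rule itself uses no measured value, and all 9 passed the filter on low counts. RNA was sequenced from 16 mice aged 90 days and labelled as C57BL/6 females, with 4 mice in each genotype. The methods of the study name the background as C57BL/6J. WT mice had neither mutation. Lepob/+ mice carried 1 ob allele of Lep, the gene of the adipocyte hormone leptin. SOD1G93A mice carried many copies of a mutant human SOD1 transgene, a model of amyotrophic lateral sclerosis whose human promoter is active in most tissues. SOD1G93A-Lepob/+ mice carried both. The comparisons ask what the transgene, the ob allele and their combination change in the fat pad.

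High endothelial venules are the post-capillary venules of lymph nodes through which lymphocytes leave the blood. Their tall endothelial cells coat mucin-like proteins with sulfated and fucosylated sugars that passing lymphocytes bind, and they show further ligands to lymphocyte integrins. Lymphatic vessels drain fluid and immune cells from most tissues, fat included, and they also line the sinuses of lymph nodes. Their identity depends on the transcription factor Prox1 and their growth on the receptor encoded by Flt4. The inguinal fat pad holds a lymph node, so RNA of dissected iWAT can come from fat, from the node or from both.

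Total counts ran from 36.8 to 61.9 M (mega counts) per library. The 8 adipocyte genes listed as a check of the tissue summed to between 12300 and 29000 CPM (counts per mega counts of library size, after TMM normalization). T cell transcripts split the libraries, since the sum of 8 T cell genes was 480 to 1020 CPM in 6 libraries and 8.38 to 24.7 CPM in the other 10. The 6 libraries were WT replicates 1 and 2, Lepob/+ replicate 3 and SOD1G93A replicates 1, 2 and 4, and they are called the lymphocyte-rich libraries here, a description of their RNA and not a group of the study. Lepob/+ replicate 4 was rich in skeletal muscle transcripts, with 140000 CPM for 5 genes. WT replicate 3 followed at 3465 CPM, and the next highest was SOD1G93A replicate 4 at 145 CPM. The library labelled SOD1G93A-Lepob/+ replicate 3 had 0 counts of Xist and 1756 counts of 4 Y-linked genes, against 11895 to 28034 and 0 in the other 15, which goes against its label as a female. The human transgene and the ob allele could not be checked from these counts.

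The sequences before the start sites of Glycam1 and Madcam1 are shown because these genes separated the 16 libraries completely, as described next. Each is the 250 bases upstream of the RefSeq start site in GRCm38.p6, printed in the direction of the gene, for Glycam1 from the reverse strand of chr15:103565082-103565331 and for Madcam1 from the forward strand of chr10:79664309-79664558. Capitals mark matches to the 10-base kappaB consensus of NF-kappaB factors or to AGGAAG, a core bound by ETS factors, on either strand.
Glycam1: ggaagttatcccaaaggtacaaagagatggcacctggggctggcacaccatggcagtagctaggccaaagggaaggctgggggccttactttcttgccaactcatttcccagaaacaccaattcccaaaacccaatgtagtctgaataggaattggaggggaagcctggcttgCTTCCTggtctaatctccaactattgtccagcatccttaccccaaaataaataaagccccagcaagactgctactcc
Madcam1: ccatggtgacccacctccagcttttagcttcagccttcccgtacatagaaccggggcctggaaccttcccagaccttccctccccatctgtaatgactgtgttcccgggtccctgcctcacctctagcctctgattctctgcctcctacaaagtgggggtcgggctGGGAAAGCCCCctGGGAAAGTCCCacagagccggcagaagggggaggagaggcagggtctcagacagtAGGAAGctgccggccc
Madcam1 held kappaB matches from 84 to 75 and from 71 to 62 bases before the start, and each overlapped a match on the opposite strand, from 83 to 74 and from 70 to 61 bases. It also held AGGAAG from 16 to 11 bases before the start. Glycam1 held AGGAAG on the opposite strand, from 77 to 72 bases before the start. Among 32851 windows of the same length in the RefSeq table, 13.8% held a kappaB match and 29.5% held AGGAAG, so neither match is rare. Of the lymphatic genes, Reln and the second start of Prox1 also held a kappaB match. The window of Chst4 held neither of these, and it held none of the other motifs searched on both strands, which were the SOX core AACAAT (9.42% of windows), the GATA core AGATAA (9.99%) and the TATA box TATAAA (12.4%). Matching letters say nothing on whether a factor was bound.

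Glycam1 (ENSMUSG00000022491, chr15:103562759-103565081) encodes the secreted mucin-like protein that carries these sugars in high endothelial venules. It was either abundant or absent. Its CPM in WT replicates 1 to 4 were 362, 203, 0 and 0. In Lepob/+ they were 0.0603, 0, 613 and 0, and in SOD1G93A 370, 574, 0 and 472. All 4 SOD1G93A-Lepob/+ libraries had 0 counts. The counts behind these values were 8931 to 25444 in the 6 lymphocyte-rich libraries and 0 to 3 in the other 10. WT, Lepob/+ and SOD1G93A thus each held both kinds of library, and SOD1G93A-Lepob/+ held only libraries without Glycam1.

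Chst4 (ENSMUSG00000035930, chr8:110029153-110039740) encodes the N-acetylglucosamine 6-O-sulfotransferase that adds the sulfate to these sugars. In WT its CPM were 2.72, 1.66, 0 and 0. In Lepob/+ they were 0, 0, 5.92 and 0. In SOD1G93A they were 2.77, 4.79, 0 and 3.65, while the 4 SOD1G93A-Lepob/+ libraries were at 0. Chst4 was thus counted in the same 6 libraries as Glycam1, with 73 to 244 counts, and in none of the others.

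Madcam1 (ENSMUSG00000020310, chr10:79664559-79668537) encodes an adhesion molecule of mucosal and some other high endothelial venules, bound by the integrin of Itga4 and Itgb7. Its CPM were 4.87, 3.55, 0.439 and 0.132 in WT and 0.503, 0.318, 3.93 and 0.366 in Lepob/+. In SOD1G93A they were 2.77, 2.64, 0.638 and 2.93. In SOD1G93A-Lepob/+ they were 1.02, 0.549, 0 and 0.618. Unlike Glycam1 and Chst4 it did not go to 0 outside the lymphocyte-rich libraries, where 9 of 10 libraries still had counts, up to 46. Its levels in the 6 libraries (2.64 to 4.87 CPM) lay above all of the others (0 to 1.02 CPM).

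Fut7 (ENSMUSG00000036587, chr2:25423267-25426374) encodes the fucosyltransferase that completes selectin ligands, both in high endothelial venules and in leukocytes. It was counted in every library. WT libraries were at 1.46, 2.34, 1.21 and 2.01 CPM, Lepob/+ at 0.663, 1.15, 0.655 and 0.366 CPM, SOD1G93A at 1.98, 7.97, 0.880 and 0.900 CPM, and SOD1G93A-Lepob/+ at 0.951, 0.549, 0.181 and 0.533 CPM. SOD1G93A replicate 2 stood far above the rest. Levels in the 6 lymphocyte-rich libraries (0.655 to 7.97 CPM) overlapped those of the other 10 (0.181 to 2.01 CPM), and only 4 of the 6 were among the 6 highest.

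**Figure D1:**
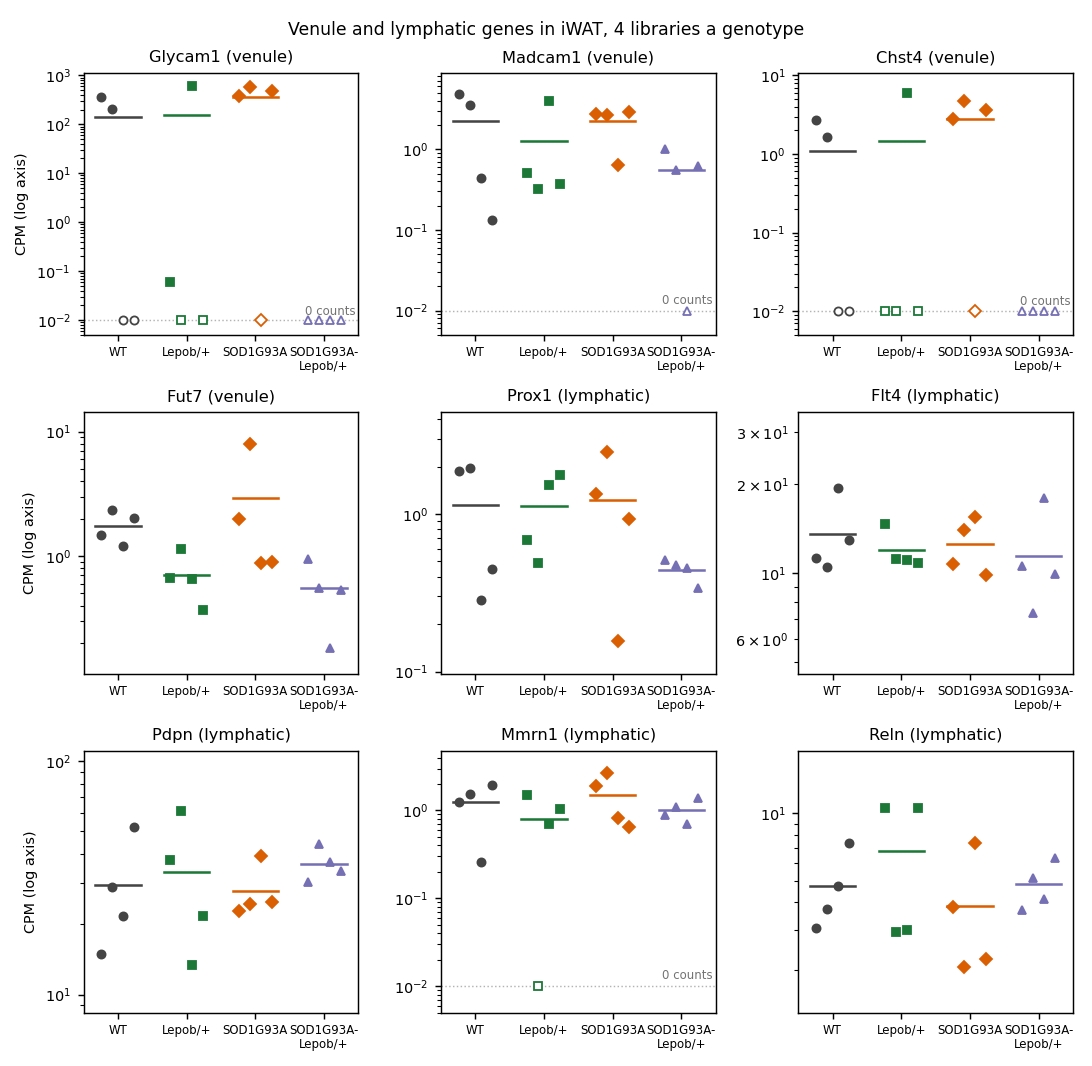
Levels of the 9 genes in CPM on a log axis, 1 panel a gene, with 4 libraries (points) and their mean (line) for each of 4 genotypes. Open points on the dotted line are libraries with 0 counts. Glycam1 and Chst4 were at 0 in all 4 SOD1G93A-Lepob/+ libraries and split the other genotypes, whereas Flt4 and Pdpn were counted in all 16 libraries.

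The lymphatic genes followed another pattern, and all but Mmrn1 were counted in every library. Prox1 (ENSMUSG00000010175, chr1:190118035-190170714) encodes the transcription factor that sets lymphatic endothelial identity. Its exons overlap 133 bases of the antisense gene Prox1os, and the strand setting of the counting is not given, so a part of its few counts could come from that gene. WT libraries were at 1.88, 1.96, 0.284 and 0.449 CPM, and Lepob/+ libraries at 0.683, 0.489, 1.53 and 1.76 CPM. SOD1G93A libraries were at 1.34, 2.46, 0.155 and 0.923 CPM, and SOD1G93A-Lepob/+ libraries at 0.509, 0.474, 0.453 and 0.337 CPM. Of the 5 lymphatic genes Prox1 came closest to the order of the venule genes, with 5 of its 6 highest libraries lymphocyte-rich. The exception was the muscle-rich Lepob/+ replicate 4, at 1.76 CPM.

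Flt4 (ENSMUSG00000020357, chr11:49609263-49652739) encodes VEGFR-3, the receptor for the lymphatic growth factors VEGF-C and VEGF-D. Its CPM were 11.3, 10.5, 19.5 and 12.9 in WT and 14.7, 11.2, 11.1 and 10.9 in Lepob/+. They were 10.8, 14.0, 15.6 and 9.85 in SOD1G93A and 10.6, 7.32, 18 and 9.97 in SOD1G93A-Lepob/+. Flt4 therefore stayed between 7.32 and 19.5 CPM in all 16 libraries, and only 1 of its 6 highest libraries was lymphocyte-rich.

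Pdpn (ENSMUSG00000028583, chr4:143267431-143299564) encodes podoplanin, a mucin-type protein of lymphatic endothelium that is also made by fibroblasts and mesothelium. WT libraries were at 14.9, 28.8, 21.6 and 51.9 CPM and Lepob/+ libraries at 37.8, 61.2, 13.4 and 21.8 CPM. SOD1G93A libraries were at 22.9, 24.5, 39.0 and 24.9 CPM and SOD1G93A-Lepob/+ libraries at 30.3, 44.0, 36.9 and 33.8 CPM. None of its 6 highest libraries was lymphocyte-rich, and 8 of the other 10 libraries lay above all 6. The sum of 6 fibroblast genes, 2240 to 4350 CPM in the 6 and 3180 to 8360 CPM in the 10, had the same tendency with overlap, and its part in the Pdpn levels was not tested.

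Mmrn1 (ENSMUSG00000054641, chr6:60924976-60989378) encodes multimerin 1, a secreted protein of platelets and endothelium that is abundant in lymphatic endothelium. Its levels were low throughout, at 1.26, 1.55, 0.258 and 1.93 CPM in WT and 1.49, 0, 0.704 and 1.03 CPM in Lepob/+. They were 1.88, 2.64, 0.811 and 0.646 CPM in SOD1G93A and 0.885, 1.1, 0.703 and 1.38 CPM in SOD1G93A-Lepob/+. The lymphocyte-rich libraries (0.646 to 2.64 CPM) overlapped the others (0 to 1.93 CPM) and made up 3 of the 6 highest.

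Reln (ENSMUSG00000042453, chr5:21884454-22344702) encodes reelin, a secreted glycoprotein best known from brain layering that collecting lymphatic vessels also secrete. Its exons overlap 246 bases of the antisense gene Gm10475. WT libraries were at 3.07, 3.73, 4.75 and 7.40 CPM and Lepob/+ libraries at 10.6, 2.93, 3.01 and 10.5 CPM. SOD1G93A libraries were at 3.81, 2.05, 7.35 and 2.24 CPM and SOD1G93A-Lepob/+ libraries at 3.70, 5.12, 4.15 and 6.34 CPM. Like Pdpn, Reln had none of its 6 highest libraries among the lymphocyte-rich ones, and 8 of the other 10 lay above all 6.

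Per kilobase of merged exon, Pdpn was the most abundant lymphatic gene, with a median of 16.3 CPM per kb over 16 libraries, followed by Flt4 at 1.35. Mmrn1, Reln and Prox1 had medians of 0.182, 0.168 and 0.0711 CPM per kb, and the ranges of these 3 over libraries overlapped. Among the venule genes the order depended on the library. Glycam1 reached 288 CPM per kb in its highest library, above the highest of Madcam1 (3.39), Fut7 (3.38) and Chst4 (2.60), while its median, like that of Chst4, was 0.

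Set against T cell transcripts, the venule genes and the lymphatic genes thus divided in part. Glycam1, Madcam1 and Chst4, 3 of the 4 venule genes, were higher in all 6 lymphocyte-rich libraries than in any of the other 10. None of the 5 lymphatic genes was. Of the 6 highest libraries, 5 were lymphocyte-rich for the lymphatic gene Prox1, but only 4 for the venule gene Fut7. Over all 19736 genes tested, 11.2% were higher in all 6 and 4.23% were lower in all 6. These shares and ranges are a description of libraries ordered by their own RNA, with no test. In RNA of whole tissue, fewer cells of a type and less RNA per cell cannot be told apart.

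**Figure D2:**
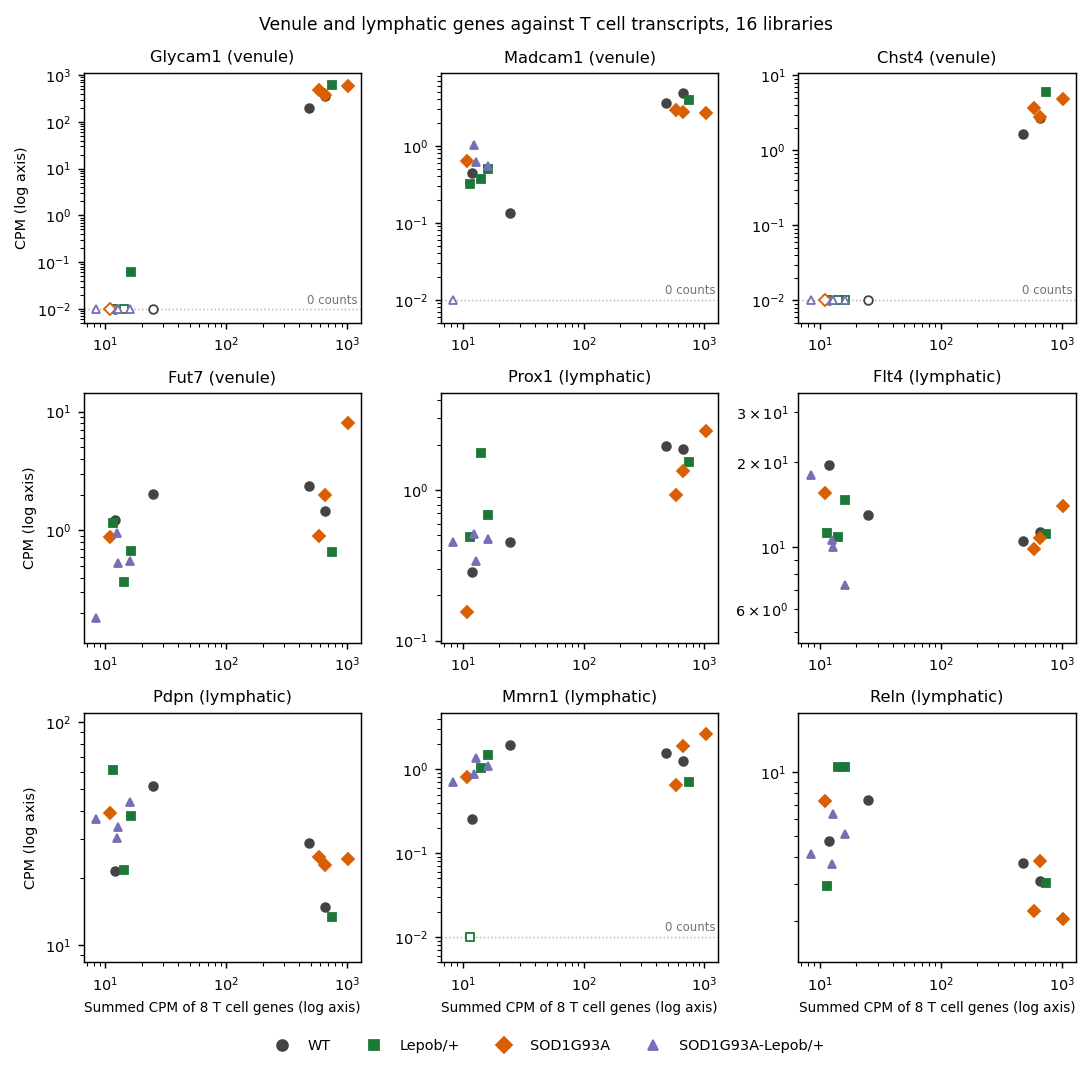
Level of each gene in CPM against the summed CPM of 8 T cell genes, both on log axes, with 1 point for each of 16 libraries and the genotype as colour and symbol. The 6 libraries at 480 to 1020 CPM of T cell transcripts hold nearly all Glycam1 and all Chst4 counts, while Flt4, Mmrn1 and Fut7 overlap between both ends of the axis.

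Marker sums of other cells were taken beside these levels. The 8 B cell genes summed to 510 to 1550 CPM in the 6 lymphocyte-rich libraries and 4.57 to 20.1 CPM in the other 10. The 4 genes of lymph node stroma summed to 291 to 485 and 3.51 to 46.3 CPM. Of these, Ccl21a, a chemokine of node stroma and high endothelial venules, was at 205 to 368 and 0.0529 to 3.10 CPM. In all, 3 of the 4 were higher in all 6 lymphocyte-rich libraries (75%, against 11.2% of all genes). Cxcl13 overlapped, at 36.5 to 61.8 and 2.35 to 45.4 CPM. By contrast, the 8 genes of blood endothelium summed to 675 to 888 CPM in the 6 and 855 to 1500 CPM in the 10, so venule genes and general endothelial genes did not move together.

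Glycam1 is also a milk gene of the lactating mammary gland, which lies in the same fat pad. Of 6 milk genes, none separated the libraries. Wap was at 0 in all 16. The major casein Csn2 had 0 to 47 counts in the lymphocyte-rich libraries and 0 to 3 in the others. The sum of the list was 12.4 to 45.5 CPM in the 6 and 14.6 to 121 CPM in the 10, with the highest value in SOD1G93A-Lepob/+, where Glycam1 had 0 counts. Csn3, Lalba and Btn1a1 were also highest in SOD1G93A-Lepob/+, and Csn1s1 in Lepob/+ replicate 4. Csn2 was highest in Lepob/+ replicate 3, the library with the highest level of Glycam1 (613 CPM).

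The ratio of counts within a library does not depend on its depth. Glycam1 per Chst4 was 133 and 122 in WT replicates 1 and 2, 104 in Lepob/+ replicate 3, and 134, 120 and 129 in SOD1G93A replicates 1, 2 and 4. Its highest value was 1.29 times its lowest, and all 6 of the 95% exact binomial intervals, which cover counting error only, shared the stretch from 112 to 118. Over the same 6 libraries the level of Glycam1 ran from 203 to 613 CPM and that of Chst4 from 1.66 to 5.92 CPM. The other pairs were looser. Glycam1 per Madcam1 ran from 57.2 to 217, a 3.80-fold range, and was 74.4 and 57.2 in the WT libraries, below the 134 to 217 of the 3 SOD1G93A libraries and the 156 of Lepob/+ replicate 3. With 2 WT libraries, this was not tested. Fut7 per Chst4 had a 15-fold range, from 0.111 to 1.67.

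Among the lymphatic genes no ratio held across all libraries. Reln per Prox1 was 0.835 to 2.84 in the 6 lymphocyte-rich libraries and 5.96 to 47.3 in the other 10, without overlap. Flt4 per Prox1 was 5.36 to 10.7 in the 6 and 6.15 to 100 in the 10, where the muscle-rich Lepob/+ replicate 4 had the lowest value and the next was 15.4. Mmrn1 per Prox1 was 0.46 to 1.4 and 0.585 to 5.22 in the libraries with counts of both. Prox1 was thus higher relative to Reln in all 6 lymphocyte-rich libraries, while relative to Flt4 and Mmrn1 the ranges overlapped. Whether the Reln counts came from lymphatic vessels was not tested. These ratios rest on 9 to 109 counts of Prox1.

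**Figure D3:**
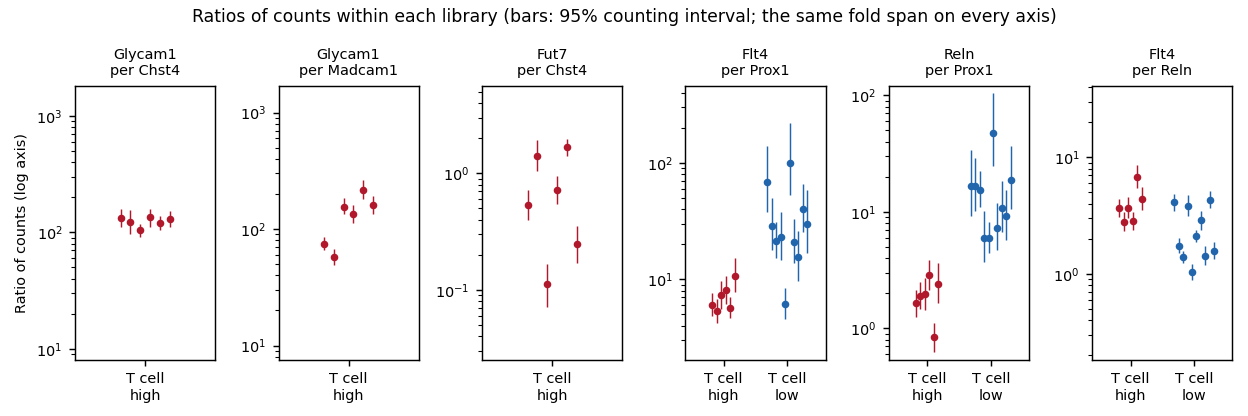
Ratios of counts of 2 genes within each library on log axes that span the same fold, with bars for the 95% exact counting interval. Red points are the 6 lymphocyte-rich libraries (T cell high) and blue points the other 10 (T cell low), left out where Chst4 or Glycam1 had too few counts. Glycam1 per Chst4 stays between 104 and 134, and Reln per Prox1 does not overlap between both kinds of library.

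In the comparison of Lepob/+ with WT, which asks what 1 ob allele changes, no difference in the 9 genes passed the test. No gene of 19736 (0%) was called by edgeR at an adjusted p under 0.05, and 0 of the 9 genes had an unadjusted p under 0.05, against 4.37% of all genes. DESeq2 also called 0 of the 9, among 0.00325% of genes called on all libraries and 0.0174% on the compared genotypes. Glycam1 was at 141 ± 176 CPM in WT and 153 ± 307 CPM in Lepob/+ (mean ± SD, n = 4 each), with a log2 fold change of 0.12 ± 2.84 (SE). This SE, here and below, is the size of the log2 fold change divided by the square root of its F statistic in edgeR. It thus follows from the test and is not a separate estimate. For a gene with 0 counts in a genotype, the fold change and its SE both depend on the small prior count added in the fit. Libraries of both genotypes either held Glycam1 in abundance or all but lacked it. Without Lepob/+ replicate 3, the fitted log2 fold change of Glycam1 went to -11.56 and that of Chst4 to -5.61, so the level of both in Lepob/+ rested on that library. Fut7 had the smallest p of the 9, at 1.76 ± 0.513 CPM in WT and 0.708 ± 0.324 CPM in Lepob/+ (log2 fold change -1.28 ± 0.66, adjusted p = 1 by edgeR). The ranges of its genotypes did not overlap, with a highest Lepob/+ value of 1.15 and a lowest WT value of 1.21 CPM. Of all genes tested, 0.375% were lower and 0.532% higher in Lepob/+ in this way. The edgeR p-values set a difference between genotypes against the spread within genotypes, estimated over all 16 libraries. For Glycam1 and Chst4 that spread includes whether a library was lymphocyte-rich.

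The comparison of SOD1G93A with WT asks what the transgene changes. By edgeR 0% of genes and 0 of the 9 were called, 0 of the 9 had an unadjusted p under 0.05 (2.56% of all genes), and DESeq2 called 0 of the 9, among 0.00976% of genes called on all libraries and 0.0474% on the compared genotypes. Glycam1 was at 354 ± 250 CPM in SOD1G93A (n = 4), with 3 of 4 libraries high, against 2 of 4 in WT, and its log2 fold change was 1.32 ± 2.89. Chst4 had the same fold change, 1.32 ± 2.04, and Madcam1 -0.01 ± 1.11. Fut7 was at 2.93 ± 3.40 CPM in SOD1G93A, for a log2 fold change of 0.73 ± 0.65 that went to -0.49 without SOD1G93A replicate 2. The lymphatic genes had log2 fold changes between -0.29 for Reln and 0.25 for Mmrn1, each smaller than its standard error.

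The comparison of SOD1G93A-Lepob/+ with SOD1G93A asks what the ob allele changes in the presence of the transgene, and it held the largest differences of the venule genes. Glycam1 had 63262 counts over the 4 SOD1G93A libraries and 0 over the 4 SOD1G93A-Lepob/+ libraries, where 0 counts allow up to 0.0182 CPM, so it was at least 18100-fold lower. Chst4, with 500 counts against 0, was at least 143-fold lower. SOD1G93A replicate 3 was also at 0 for both, so the ranges touched at 0. Fut7 was at 0.554 ± 0.315 CPM against 2.93 ± 3.40 CPM, a log2 fold change of -2.35 ± 0.68, and its ranges overlapped. Madcam1 was at 0.546 ± 0.419 CPM against 2.25 ± 1.08 CPM (log2 fold change -1.99 ± 1.16, adjusted p = 0.394 by edgeR).

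Whether these differences passed a threshold depended on the tool. By edgeR 0 of the 9 genes were called, as were 0% of all genes. Unadjusted, Glycam1, Chst4 and Fut7 were under 0.05, each with an adjusted p = 0.261 by edgeR, against 16.5% of all genes in either direction and 12.3% in the lower. DESeq2 on all libraries called the same 3 genes lower, with adjusted p of 1.82e-10 for Glycam1, 2.9e-07 for Chst4 and 0.0201 for Fut7, among 1.84% of genes called. DESeq2 on the compared genotypes also called these 3, among 6.06% of genes, with adjusted p of 0.000117 for Glycam1, 0.0156 for Chst4 and 0.0271 for Fut7. The DESeq2 log2 fold change of Glycam1 was -31.12 on all libraries and -16.27 on the compared genotypes, and that of Chst4 was -24.15 and -9.29. With 0 counts in SOD1G93A-Lepob/+, the counts do not fix the size of these fold changes, and their DESeq2 p-values depend on the fit. Shares called by DESeq2, here and elsewhere, are of all genes with a p-value, which were 30729 and 29385 in these 2 fits. Only 19841 and 21936 of them were given an adjusted p, so the shares of genes that could be called are larger. Without the library labelled SOD1G93A-Lepob/+ replicate 3, both Glycam1 and Chst4 remained at 0 in the genotype, and Fut7 had a log2 fold change of -2.07 (edgeR adjusted p = 0.379). Without SOD1G93A replicate 2 the fold change of Fut7 was -1.14 (edgeR adjusted p = 0.674).

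No call was made for any of the 5 lymphatic genes by edgeR or by DESeq2. Prox1 averaged 0.443 ± 0.0746 CPM in the SOD1G93A-Lepob/+ libraries and 1.22 ± 0.962 CPM in those of SOD1G93A, a log2 fold change of -1.41 ± 0.72 (adjusted p = 0.336 by edgeR). Its 4 SOD1G93A-Lepob/+ libraries lay inside the range of SOD1G93A. Flt4 had a log2 fold change of -0.13 ± 0.27, Mmrn1 of -0.55 ± 0.83, Reln of 0.32 ± 0.50 and Pdpn of 0.38 ± 0.42, each smaller than its standard error. A p above the threshold does not show that these levels were equal.

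T cell transcripts differed between these genotypes as well. All 8 T cell genes had a lower level in SOD1G93A-Lepob/+ at an unadjusted p under 0.05, with a median log2 fold change of -5.84, against 12.3% of all genes lower at that p. Of the 8, edgeR called 0, with an adjusted p = 0.261 for the smallest, and DESeq2 called 8 in either form, against 1.84% and 6.06% of all genes. Of the libraries, 3 of 4 SOD1G93A were lymphocyte-rich against 0 of 4 in SOD1G93A-Lepob/+. With the T cell level of each library as a covariate in edgeR, the log2 fold change was -0.16 ± 0.14 for Glycam1, 0.30 ± 0.39 for Chst4, 0.39 ± 0.80 for Madcam1 and 0.69 ± 0.59 for Prox1. Glycam1 and Chst4 had 0 counts in every SOD1G93A-Lepob/+ library, so their values here depend on the prior count and do not measure an effect. Fut7 stayed lower in value, at -1.58 ± 0.85 (adjusted p = 1 by edgeR). Of the 9 genes, 0 had an unadjusted p under 0.05 in this fit, against 800 of all 19736 genes. Since every SOD1G93A-Lepob/+ library was low in T cell transcripts, the genotype and the lymphoid content of the sample cannot be told apart for the venule genes.

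**Figure D4:**
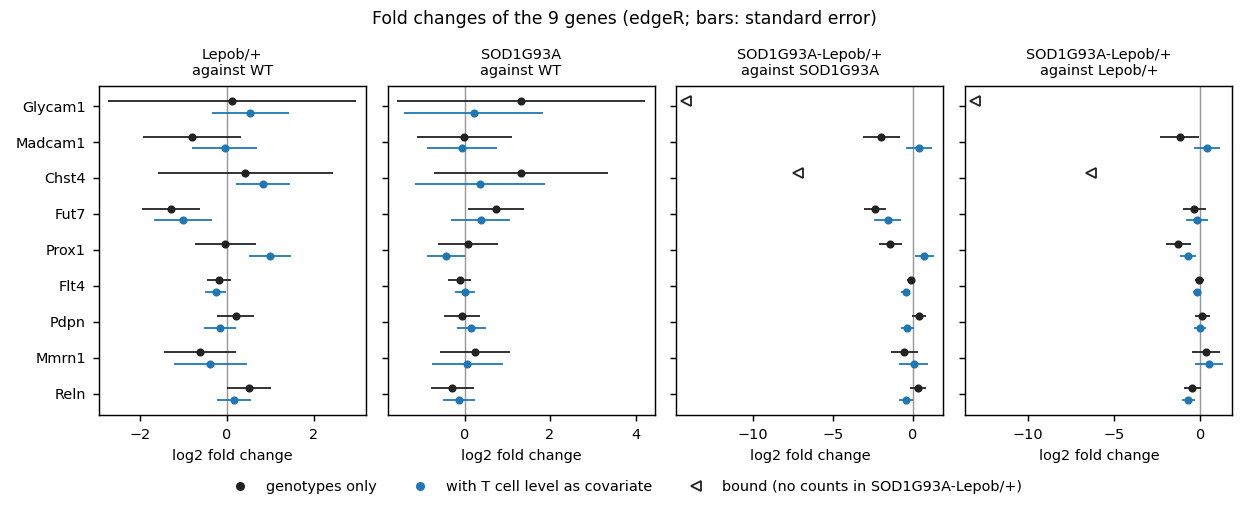
Log2 fold changes of the 9 genes in 4 comparisons, with the standard error as bars, from edgeR with the genotypes only (black) and with the T cell level of each library as a covariate (blue). The standard error is the size of the fold change divided by the square root of its F statistic. The range of the x axis differs between panels. Open triangles are the limits for Glycam1 and Chst4, which had no counts in SOD1G93A-Lepob/+. Their covariate values are left out of the panels with that genotype, since they depend on the prior count. A change at least as large as the triangle lies at or to its left, and the bars of Flt4, Pdpn and Mmrn1 in black reach 0 in all 4 panels.

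The comparison of SOD1G93A-Lepob/+ with Lepob/+ asks what the transgene changes in carriers of the ob allele, and it shares the 4 SOD1G93A-Lepob/+ libraries with the comparison above. Glycam1 was at least 8580-fold lower and Chst4 at least 82.9-fold lower, a difference carried by Lepob/+ replicate 3 alone, since the other 3 Lepob/+ libraries had 3 or fewer counts of Glycam1 and 0 of Chst4. By edgeR 0 of the 9 genes and 0% of all genes were called, and 2 of the 9, Glycam1 and Chst4, had an unadjusted p under 0.05 (adjusted p = 0.597 and 0.602), against 8.24% of all genes. DESeq2 on all libraries called both, among 0.221% of genes, and DESeq2 on the compared genotypes, with 0.111% of genes called, called 0 of the 9 and gave neither of them a p-value. Prox1 was at 1.12 ± 0.625 CPM in Lepob/+, with a log2 fold change of -1.28 ± 0.72 (adjusted p = 0.649 by edgeR), which was -0.98 without the muscle-rich Lepob/+ replicate 4. Madcam1 was at 1.28 ± 1.77 CPM in Lepob/+ (log2 fold change -1.20 ± 1.14), and the other 5 genes had log2 fold changes between -0.48 and 0.32.

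The interaction asks whether the ob allele had another effect in SOD1G93A mice than in WT mice. By edgeR 0 of the 9 genes and 0% of all genes were called. Glycam1 and Chst4 were under 0.05 before adjustment, with an adjusted p = 0.564 by edgeR, against 7.98% of all genes, and both were called lower by DESeq2 on all libraries, among 0.166% of genes. Both rested on Lepob/+ replicate 3. The fitted term of Glycam1 was -14.01 ± 5.62 and went to -2.33 without that library (edgeR adjusted p = 0.938), and that of Chst4 was -7.34 ± 3.11 and went to -1.31 (edgeR adjusted p = 1). With the T cell covariate the terms were -0.70 ± 0.56 and -0.54 ± 0.59. All of these terms depend on the prior count, since both genes had 0 counts in SOD1G93A-Lepob/+. The other 7 genes had interaction terms between -1.37 ± 1.00 for Prox1 and 0.19 ± 0.60 for Pdpn on the log2 scale.

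Other genes of the venule programme were taken from a list of 21 that make or carry these sugars or adhesion molecules, or control them. In the order by T cell transcripts, 7 of the 21 were higher in all 6 lymphocyte-rich libraries (33.3%, against 11.2% of all genes) and 1 was lower in all 6 (4.76%, against 4.23%). The 7 were Chst2 (14.9 to 18.6 against 4.96 to 10 CPM), the second sulfotransferase of the ligand, the fucosyltransferase gene Fut4, the adhesion genes Vcam1 and Icam1, and Relb, Nfkb2 and Map3k14 of the noncanonical NF-kappaB pathway. The gene that was lower was Ltbr, the lymphotoxin beta receptor that signals to that pathway, at 67.1 to 87.1 against 97.8 to 135 CPM. All of these are also expressed outside venules. The venule transcription factor gene Nkx2-3 had 2 counts or fewer in each library, and 0 in the 10. In SOD1G93A-Lepob/+ against SOD1G93A, 4 of 20 tested were higher and 5 lower at an unadjusted p under 0.05, against 4.19% and 12.3% of all genes. Of the list, edgeR and DESeq2 on all libraries called 0, DESeq2 on the compared genotypes called 2 higher and 4 lower, among 6.06% of all genes, and the median log2 fold change was -0.12 against 0 for all genes. The smallest p belonged to B3gnt3, a glycosyltransferase gene that extends the sugar carrying the ligand (log2 fold change 0.53 ± 0.16, adjusted p = 0.261), Podxl, a sialomucin of endothelium (0.57 ± 0.18), and Map3k14 (-1.02 ± 0.35). The sugar and scaffold genes of the venule therefore did not follow Glycam1 as 1 group.

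The lymphocyte side of the same contact was given by 12 genes, and 9 of them were higher in all 6 lymphocyte-rich libraries (75%, against 11.2%). Ltb and Lta, the lymphotoxin genes whose products maintain high endothelial venules, were at 69.3 to 145 and 7.46 to 15.5 CPM in the 6 against 1.09 to 3.07 and 0 to 0.302 CPM in the 10. Itga4 and Itgb7, the integrin that binds MAdCAM-1, were at 51.2 to 108 and 107 to 195 CPM against 8.34 to 29.8 and 11.6 to 62.6 CPM. In SOD1G93A-Lepob/+ against SOD1G93A all 12 had lower levels, 10 with an unadjusted p under 0.05 (12.3% of all genes), and the median log2 fold change was -2.70 against 0 for all genes. edgeR called 0 of them, DESeq2 on all libraries 9 (1.84% of all genes) and DESeq2 on the compared genotypes 10 (6.06%). The smallest p belonged to Tnfsf14, encoding the cytokine LIGHT (-1.88 ± 0.50, edgeR adjusted p = 0.261), Itga4 (-1.90 ± 0.60) and Itgal (-3.16 ± 0.99).

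Of 25 further lymphatic genes, 1 was higher in all 6 lymphocyte-rich libraries (4%, against 11.2%) and 1 lower (4%, against 4.23%). These were Celsr1, a planar polarity gene of lymphatic valves, at 16.7 to 24.0 against 3.25 to 7.66 CPM, and Gja4, a valve connexin gene, at 10.4 to 11.5 against 13.5 to 20.1 CPM. Lyve1, the hyaluronan receptor used to mark lymphatic capillaries and also made by macrophages, overlapped at 23.4 to 132 and 17.1 to 206 CPM. The summed level of the 25 was 675 to 916 CPM in the 6 and 834 to 1200 CPM in the 10. In SOD1G93A-Lepob/+ against SOD1G93A, 2 were higher and 1 lower at an unadjusted p under 0.05, against 4.19% and 12.3% of all genes. Their median log2 fold change was 0.26, against 0 for all genes, and edgeR called 0. Among them were Nfatc1, a valve transcription factor gene also active in lymphocytes (-0.91 ± 0.30, adjusted p = 0.261), and the mechanosensor gene Piezo1 (0.26 ± 0.12). DESeq2 on all libraries called 0 of the 25 and DESeq2 on the compared genotypes 1, against 1.84% and 6.06% of all genes.

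Of 8 ligands and partners of the lymphatic receptors, Lrp8, a reelin receptor (2.5 to 9.80 against 0.397 to 1.59 CPM), and Dab1, its adaptor (0.763 to 2.15 against 0 to 0.141 CPM), were higher in all 6 lymphocyte-rich libraries. Vldlr, the other reelin receptor (45.1 to 63.6 against 72.7 to 301 CPM), and Vegfc, the ligand of VEGFR-3 (2.79 to 3.75 against 3.81 to 7.07 CPM), were lower in all 6. The 301 CPM of Vldlr was that of the muscle-rich Lepob/+ replicate 4, and the next highest value was 108 CPM. The counts of 2 in each direction are 25% of the list, against 11.2% and 4.23% of all genes. The ligand Vegfd overlapped, at 19.0 to 37.9 and 26.9 to 72.0 CPM. In SOD1G93A-Lepob/+ against SOD1G93A, Lrp8 (-2.66 ± 0.85) and Dab1 (-5.66 ± 1.88) were under 0.05 before adjustment, each with an adjusted p = 0.261 by edgeR, and the log2 fold change of Vegfc was 0.43 ± 0.24 (adjusted p = 0.382). These 2 of 8 genes under 0.05 stand beside 12.3% of all genes lower at that p. edgeR called 0 of the list, DESeq2 on all libraries 1 lower and DESeq2 on the compared genotypes 2 lower, against 1.84% and 6.06% of all genes. Reln and its receptors thus did not move in 1 direction.

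The genes whose order over the 16 libraries was most like each of the 9 were found by the mean absolute difference in rank, where the median over all tested genes lay between 5.12 and 5.50. Nearest to Glycam1 were Ighv8-12 (0.125), BC051537 (0.25) and Igkv6-14 (0.25). Nearest to Chst4 were Trav12d-2 (0.125), Trav12n-2 (0.125) and Trav12-3 (0.25). Most of these are segments of antibody or T cell receptor genes, whose reads cannot be assigned with certainty among near-identical copies, and with 9 or 10 tied libraries at 0 the ranks rest on the 6 others. Glycam1 and Chst4 themselves differed by 0.562, closer than all but 0.0507% of genes. From Glycam1, the venule gene Madcam1 and the lymphatic gene Prox1 both differed by 2.62, with 15.9% of genes closer, and the venule gene Fut7 by 3.88, with 31.2% closer. From Chst4, Madcam1 differed by 2.44, Prox1 by 2.81 and Fut7 by 3.62.

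The remaining members had no lymphocyte receptor segment among their nearest genes. Nearest to Pdpn were Lrrn4cl (0.375), Procr (0.5), the endothelial protein C receptor gene, and Ace (0.5), the angiotensin-converting enzyme gene. Nearest to Reln were Ugt8a (1.12) and Prx (1.25), genes of myelin lipid synthesis and of myelinating Schwann cells, and Dusp15 (1.25). Prox1 was nearest to Gm26947 (1.25), Snrnp40 (1.38) and Rnf113a1 (1.38), and Madcam1 to Gm17491 (1.38), Rgs11 (1.38) and Rgr (1.5). Fut7 was nearest to Slc25a45 (1.62), Mmrn1 to Inpp5e (2.00) and Flt4 to Mrpl4 (2.12), so these 3 had looser likenesses than Pdpn or Reln. The rank differences are a description over 16 libraries and carry no test.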

How the data were processed

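Bulk RNA of iWAT was measured in 16 libraries. The authors trimmed reads with fastp, aligned them to mm10 (GRCm38) with HISAT2 2.1.0 and used featureCounts 2.0.2 for the counts of uniquely mapped reads (tools and versions per the submitters' processing notes and the study's methods). The deposited values are raw counts, with no normalization. The annotation release and the strand setting are not given in the sources used here. The labels name a NEBNext Ultra kit and the methods TruSeq Stranded mRNA, and the sources do not say if read pairs were counted once.

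Of 54752 IDs, 54723 were paired with a symbol by GENCODE M21 (GRCm38), which gave coordinates and exon lengths. Promoter windows came from RefSeq, where all 9 genes matched. The tests were run with edgeR 4.0.16 (R 4.3.3): filterByExpr (19736 genes), TMM, a robust quasi-likelihood fit on the 16 libraries, a prior count of 1 and Benjamini-Hochberg adjustment at 0.05. The design was kept with edgeR as the main test, and DESeq2 1.42.0, the tool the authors used, was an alternative. Intervals and the floor of 3 counts over a genotype cover counting error only. The procedure was tested on simulated data. The simulated libraries of a genotype shared a common mean for each gene, apart from library size. That test therefore does not cover genes as uneven within a genotype as Glycam1 and Chst4. No pair of libraries of a genotype was a duplicate.

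The 9 genes, the lists and the tests were chosen with earlier results of these data known. Named genes are the 9, in each list described up to 3 by smallest p, and for each of the 9 up to 3 genes nearest in rank. List genes named for the order by T cell transcripts, the milk genes, Ccl21a and Cxcl13, and the form of the kappaB consensus, were chosen after their values were seen. Alternatives were DESeq2 size factors in place of TMM, no filter or a stricter one (1 CPM in 4 libraries), compared genotypes only, a T cell covariate, the replicate number as a block, and leaving out each library. Results that need 2 of the list genes are not reported here.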

Additional observations from a re-analysis of the deposited data

Results flagged for a closer look

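In 7 of the 36 sets of 4 libraries tested (9 genes in 4 genotypes), 1 library lay far from the other 3 by Dixon's criterion. Chance meets it in about 1 set of 20 for independent, normally distributed values. These sets share libraries and hold genes at 0 in some of them, so the number of flags is not read as an excess. Glycam1 and Chst4 in SOD1G93A-Lepob/+ were at 0 throughout and could not be flagged. In Lepob/+ replicate 3, Glycam1 was at 613 CPM (nearest other library 0.0603), Chst4 at 5.92 CPM (nearest 0) and Madcam1 at 3.93 CPM (nearest 0.503). This is the 1 Lepob/+ library rich in T cell transcripts. In SOD1G93A replicate 3, the 1 library of that genotype that was not, Madcam1 was at 0.638 CPM (nearest 2.64) and Pdpn at 39.0 CPM (nearest 24.9). Fut7 was at 7.97 CPM in SOD1G93A replicate 2 (nearest 1.98), the library with the highest T cell sum, 1020 CPM. Flt4 was at 14.7 CPM in Lepob/+ replicate 1 (nearest 11.2), a library low in T cell transcripts. The values beside these levels were not tested as their cause.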

How the results depend on the processing

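By edgeR no gene of the 9 was called in any of the 5 comparisons under DESeq2 size factors, no filter, the stricter filter, the T cell covariate, the replicate block or any left-out library, and on the compared genotypes none of those fitted in 4 comparisons, without Glycam1 and Chst4, which failed its filter in all but SOD1G93A against WT. DESeq2 on all libraries called 3, 2 and 2 of the 9 in SOD1G93A-Lepob/+ against SOD1G93A, against Lepob/+ and in the interaction, and 3 in the first on the compared genotypes, where Glycam1 and Chst4 had no p-value against Lepob/+. The cause was not tested. In the same order, DESeq2 on all libraries called 565, 68 and 51 genes, and 1 in Lepob/+ and 3 in SOD1G93A against WT. On the compared genotypes it called 5 in Lepob/+ against WT, 14 in SOD1G93A against WT, 1780 against SOD1G93A and 31 against Lepob/+, and edgeR 2 against SOD1G93A. The number of the 9 at an unadjusted p under 0.05 is given with that of all genes in brackets. In Lepob/+ against WT it was 1 with DESeq2 on all libraries (785 of 30729) or the compared genotypes (411 of 28721). It was also 1 with edgeR on the compared genotypes (254 of 18404) and the replicate block (414 of 19736). In SOD1G93A-Lepob/+ it was 5 against SOD1G93A with DESeq2 on the compared genotypes (5051 of 29385) and 0 with the T cell covariate (800 of 19736). Against Lepob/+ it was 1 with DESeq2 (1104 of 27956) or edgeR (988 of 18292) on the compared genotypes. It was 0 with the covariate (1789 of 19736) or the block (759 of 19736). In the interaction it was also 0 with the covariate (1220 of 19736) or the block (969 of 19736). With the T cell covariate, log2 fold changes turned for Prox1 (0.99) and Pdpn (-0.16) in Lepob/+ against WT, for Prox1 (-0.43), Flt4 (0.01) and Pdpn (0.16) in SOD1G93A against WT, for Madcam1 (0.39), Chst4 (0.30), Prox1 (0.69), Pdpn (-0.35), Mmrn1 (0.03) and Reln (-0.42) in SOD1G93A-Lepob/+ against SOD1G93A, for Madcam1 (0.38) and Pdpn (-0.03) against Lepob/+, and for Madcam1 (0.44), Flt4 (-0.19) and Pdpn (-0.19) in the interaction. The value of Chst4 among these depends on the prior count, since it had 0 counts in SOD1G93A-Lepob/+. Same-numbered libraries correlated over 0.1 in 5 of 24 pairs and under -0.1 in 8, and 1 of 16 libraries correlated best with its own number, so the numbers were not read as a pairing. With the replicate block, values turned in Lepob/+ against WT for Glycam1 (-6.44), Chst4 (-1.17) and Prox1 (0.41), in SOD1G93A against WT for Madcam1 (0.35) and Pdpn (0.01), and in the interaction for Flt4 (-0.05) and Mmrn1 (-0.04).

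Leaving out 1 library at a time gave 0 to 2 of the 9 at an unadjusted p under 0.05 in Lepob/+ against WT, 0 to 2 in SOD1G93A-Lepob/+ against Lepob/+ and 0 to 2 in the interaction. Of all genes, 20011 to 20153 in these fits, 341 to 2295, 1057 to 2477 and 751 to 3259 were under 0.05 in the same order. The genes called were 0 to 1, 0 to 3, 0 to 2 and 0 to 2 in SOD1G93A against WT, SOD1G93A-Lepob/+ against SOD1G93A and against Lepob/+, and the interaction. Log2 fold changes that turned ranged as follows. In Lepob/+ against WT they were -11.56 to 1.16 (Glycam1), -5.61 to 1.35 (Chst4), -0.36 to 0.33 (Prox1), -0.29 to 0.05 (Flt4) and -0.27 to 0.60 (Pdpn). In SOD1G93A against WT they were -0.42 to 0.67 (Madcam1), -0.49 to 1.01 (Fut7), -0.51 to 0.46 (Prox1), -0.26 to 0.12 (Flt4), -0.31 to 0.33 (Pdpn) and -0.18 to 0.51 (Mmrn1). Against SOD1G93A it was -0.43 to 0.04 for Flt4. Against Lepob/+ they were -1.67 to 0.45 (Madcam1), -0.36 to 0.11 (Flt4), -0.15 to 0.57 (Pdpn) and -0.08 to 0.80 (Mmrn1). In the interaction they were -1.86 to 0.47 (Madcam1), -1.46 to 0.15 (Fut7), -0.25 to 0.22 (Flt4), -0.21 to 0.65 (Pdpn), -0.34 to 0.55 (Mmrn1) and -0.47 to 0.34 (Reln), while Glycam1 (-15.04 to -2.33) and Chst4 (-8.26 to -1.31) kept their sign, both nearest 0 without Lepob/+ replicate 3. Prox1, Mmrn1 and Fut7 rest on few counts, which limits their precision.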
